A study of Homo sapiens with 11 samples.

Results

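The 33 genes described here encode enzymes that make cholesterol, regulators that sense sterols, and proteins that export, move or store cholesterol. They were taken by gene symbol from a count table of 58037 gene identifiers, each of the 33 matched 1 identifier, and all 33 passed the filter on low counts. By role they are 7 enzymes of the mevalonate steps, 12 enzymes from squalene to cholesterol, 5 genes of the SREBP system, 5 genes of the liver X receptor (LXR) system and 4 genes of cholesterol transport and storage.

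RNA was sequenced in bulk from 4 groups of cultured human acute myeloid leukaemia cells: OCI-AML3-FLT3-ITD cells given FHD-286 (2 libraries), OCI-AML3-FLT3-ITD controls (3 libraries), OCI-AML3 cells given FHD-286 (3 libraries) and OCI-AML3 controls (3 libraries). OCI-AML3 is an established line known for mutant NPM1, and FLT3-ITD is an internal tandem duplication in the receptor tyrosine kinase FLT3. FHD-286 is an inhibitor of BRG1 (SMARCA4) and BRM (SMARCA2), the ATPases of the SWI/SNF chromatin-remodelling complexes, and was given at 100 nM for 16 h. Both lines were grown in RPMI medium with 20% fetal bovine serum. Information on how the duplication was introduced, whether the line is a single clone and whether controls received a vehicle is not given in the sources used here. No label says that the replicates came from different cultures. The p-values below therefore rest on library-to-library spread alone, and that spread may be technical. In bulk RNA, fewer cells of a type and less RNA per cell cannot be told apart.

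Cells make cholesterol from acetyl-CoA through mevalonate, farnesyl diphosphate, squalene and lanosterol. When sterols in the endoplasmic reticulum are low, SCAP escorts the precursors of the transcription factors SREBP1 and SREBP2 to the Golgi, where they are cut and freed to switch on the synthesis genes, and INSIG proteins hold SCAP back when sterols are high. When oxysterols are high, the nuclear receptors LXRα and LXRβ switch on genes of cholesterol export such as ABCA1, and SOAT1 esterifies surplus cholesterol for storage in lipid droplets.

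Total counts ran from 58397190 to 79172389 per library. Levels below are CPM, each gene's count scaled to its library's TMM-corrected total. The edgeR quasi-likelihood method gave the p-values, Benjamini-Hochberg adjusted over all genes tested, a gene is called at an adjusted p under 0.05, and errors of log2 fold changes are approximate standard errors (SE). One library stood apart from its group. FLT3 itself was at 171 and 169 CPM in the treated OCI-AML3-FLT3-ITD libraries and at 178, 53.4 and 203 CPM in the OCI-AML3-FLT3-ITD controls 1, 2 and 3, against 39.2 to 43.3 CPM in the 6 OCI-AML3 libraries. WT1 and WLS were at 0.202 and 0.0577 CPM in the library labelled FLT3-ITD control replicate 2, against 14.2 to 21.8 and 11.2 to 14.4 CPM in the other 4 libraries of that line. Its log2 CPM profile correlated with the OCI-AML3 controls at r = 0.979 to 0.984 and with the other OCI-AML3-FLT3-ITD controls at r = 0.957 and 0.960, across genes, which are not independent. Its share of mitochondrial counts was 7.01%, and the other 10 libraries had 3.64% to 6.09%. Each count of members is therefore given with all 11 libraries and with the 10 that leave this one out, and a single value with no fit named is from all 11. A call named as made only with 10 libraries was made in that fit and not with all 11, and other fits are given further below. The fitted common biological variation between replicates (edgeR's BCV) was 0.193 with 11 libraries and 0.0652 with 10. All 10 myeloid markers were detected, 9 fell and 1 rose in each line with 11 and with 10 libraries, and their summed levels were 578 to 619 CPM in treated and 2189 to 2712 CPM in control OCI-AML3-FLT3-ITD libraries, and 843 to 892 CPM in treated and 3210 to 3622 CPM in control OCI-AML3 libraries. Summed lymphoid, erythroid and megakaryocyte, and stromal and epithelial markers reached at most 3.92, 0.866 and 0.287 CPM in any library, and 2 of 8, 4 of 8 and 2 of 9 of them were at 0 in all 11. The part of the fall in myeloid markers in the results below was not tested.

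Promoters are shown for the regulators and targets whose values the comparisons turn on: SREBF2, INSIG1, TMEM97, EBP and ABCA1. ABCA1 was picked by a rule, and the other 4 were picked after their values were seen. Each run is the 250 bases before the RefSeq transcription start on GRCh38.p14, written 5′ to 3′ on the gene's strand. Capitals mark matches, on either strand, to the sterol regulatory element TCACNCCAC, the NF-Y box CCAAT, the E-box CACGTG, and the LXR element known as DR4, which is AGGTCA repeated after a gap of 4 bases. Matches of the first and the third of these can share letters, but none of the matches shown overlapped another. By GENCODE 29 on hg38, SREBF2 lies at chr22:41833079-41907308, INSIG1 at chr7:155297776-155310235, TMEM97 at chr17:28319095-28328685, EBP at chrX:48521158-48528716 and ABCA1 at chr9:104781002-104928237. The SREBF2 window is chr22:41832855-41833104 (plus strand), the INSIG1 window chr7:155297628-155297877 (plus strand), the TMEM97 window chr17:28318950-28319199 (plus strand), the EBP window chrX:48521558-48521807 (plus strand) and the ABCA1 window chr9:104928156-104928405 (minus strand). The RefSeq and GENCODE starts differ, so each window reaches into the GENCODE gene. The EBP window lies wholly inside the GENCODE EBP gene.
SREBF2: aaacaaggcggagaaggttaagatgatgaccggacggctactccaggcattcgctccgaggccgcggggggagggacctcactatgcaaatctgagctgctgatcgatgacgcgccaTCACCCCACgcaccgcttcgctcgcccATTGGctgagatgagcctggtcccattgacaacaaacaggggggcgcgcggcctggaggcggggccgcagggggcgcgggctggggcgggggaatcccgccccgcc
INSIG1: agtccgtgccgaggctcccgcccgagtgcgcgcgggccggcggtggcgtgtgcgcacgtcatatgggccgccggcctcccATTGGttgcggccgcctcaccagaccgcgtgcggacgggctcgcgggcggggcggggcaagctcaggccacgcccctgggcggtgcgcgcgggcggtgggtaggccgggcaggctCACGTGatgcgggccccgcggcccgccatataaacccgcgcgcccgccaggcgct
TMEM97: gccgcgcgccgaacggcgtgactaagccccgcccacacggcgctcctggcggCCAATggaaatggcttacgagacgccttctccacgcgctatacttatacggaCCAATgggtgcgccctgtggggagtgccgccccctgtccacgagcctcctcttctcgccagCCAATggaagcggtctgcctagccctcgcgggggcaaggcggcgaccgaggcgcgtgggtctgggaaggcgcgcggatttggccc
EBP: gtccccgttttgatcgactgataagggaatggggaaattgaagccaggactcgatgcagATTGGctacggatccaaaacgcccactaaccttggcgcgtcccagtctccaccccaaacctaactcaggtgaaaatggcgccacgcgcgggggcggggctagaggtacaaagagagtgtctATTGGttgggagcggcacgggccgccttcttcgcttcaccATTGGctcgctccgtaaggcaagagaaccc
ABCA1: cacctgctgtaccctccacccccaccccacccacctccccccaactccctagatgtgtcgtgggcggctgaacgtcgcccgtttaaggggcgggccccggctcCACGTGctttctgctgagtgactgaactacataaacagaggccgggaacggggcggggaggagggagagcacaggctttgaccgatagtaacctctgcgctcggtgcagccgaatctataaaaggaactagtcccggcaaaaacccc
SREBF2 held the only exact match to the sterol regulatory element among the 29 members that have a promoter in the RefSeq table. It started 133 bases before the start. Of all 27305 promoters, in windows of 250 bases before to 50 after the start, 1.15% held one. An NF-Y box was present in 18 of the 29 and in 35.7% of all promoters. TMEM97 held 3 of them on the plus strand and EBP 3 on the minus strand. An E-box was present in 5 of the 29, those of SCAP, INSIG1, ABCA1, SC5D and LSS, and in 7.43% of all promoters. An exact DR4 match was in none of the 29 and in 0.0183% of all promoters. Only the exact letters given above were searched, with any base at N or in the gap. The lack of a match, as for DR4 at ABCA1, does not show that a site is absent. A match is a run of letters, not a shown binding site.

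In OCI-AML3 cells, 9 of the 19 synthesis enzymes fell after FHD-286 with 11 libraries and 14 with 10. INSIG1 and TMEM97 fell further than any enzyme, and ABCA1, SOAT1 and INSIG2 rose. With 11 libraries, 4 of the 33 members rose and 12 fell, while 41.3% of all 18908 genes tested were called (19.8% higher and 21.5% lower). With 10 libraries 6 rose and 20 fell, and 58.8% of 18662 genes were called (29.0% higher and 29.8% lower). The treated libraries all lay below the controls for 21 members and above them for 6, against 33.2% and 32.8% of all genes, and for the same counts of members with 10 libraries, against 33.5% and 33.1%. The median log2 fold change was -0.44 over the members and 0.01 over all genes tested. Scaling by library totals shifted the median of all genes to 0.17 and made 63% of all calls higher, against 47.9% with TMM. With that scaling 5 members rose and 8 fell, against 5161 and 3025 of all 18908 genes.

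The 7 mevalonate enzymes all had negative log2 fold changes in OCI-AML3 cells, and 4 fell with 11 libraries (6 with 10). ACAT2, the cytosolic thiolase that joins acetyl-CoA units, had 24.6, 25.7 and 24.5 CPM in treated cells, against 47.9, 47.8 and 53.7 CPM in controls. Its groups did not overlap, and it fell by 1.00 ± 0.13 on the log2 scale (edgeR adjusted p = 0.00018). The kinase MVK fell by 0.77 ± 0.16 (edgeR adjusted p = 0.0027). The isomerase IDI1, with 52.2 to 54.0 CPM in treated cells and 81.7 to 89.7 CPM in controls, fell by 0.67 ± 0.22 (edgeR adjusted p = 0.032). It lost the 11-library call without any 1 of the 6 OCI-AML3 libraries (adjusted p = 0.062 to 0.097), at log2 fold changes of -0.70 to -0.63. FDPS, which makes farnesyl diphosphate, fell by 0.47 ± 0.12 (edgeR adjusted p = 0.010), and missed the threshold without OCI-AML3 FHD-286 replicate 3 (adjusted p = 0.065). HMGCS1, the synthase that makes HMG-CoA, had 72.2 to 74.6 CPM in treated cells and 84.0 to 88.99 CPM in controls. HMGCS1 and the decarboxylase MVD were called lower only with 10 libraries, at log2 fold changes of -0.24 and -0.52. PMVK, the other kinase, was at 46.1 to 51.5 CPM in treated cells and 48.0 to 56.2 CPM in controls, ranges that overlap. Exons of HMGCS1, IDI1 and FDPS overlap antisense genes over 15%, 14.8% and 18.6% of their length, and reads of the 2 strands cannot be told apart without the strand setting. ACAT2 exons overlap opposite-strand genes, SOD2 and TCP1 among them, over 52.3% of their length in GENCODE 29, and over 9.24% counting only genes with an identifier in the table.

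Of the 12 enzymes from squalene to cholesterol, 5 fell and 1 rose in OCI-AML3 cells with 11 libraries, and 8 fell and 2 rose with 10. FDFT1, the squalene synthase at the branch point to sterols, had 166, 164 and 167 CPM in treated cells, against 285.8, 276 and 318 CPM in controls. It fell by 0.82 ± 0.13 on the log2 scale (edgeR adjusted p = 0.00047). SQLE, the epoxidase that acts next, had 113, 113 and 114 CPM in treated cells and 171, 168 and 168 CPM in controls, groups that lie well apart. Its log2 fold change was -0.58 ± 0.20 (edgeR adjusted p = 0.041 with 11 libraries and 1.2e-08 with 10), and the 11-library call ended without any 1 of the 6 OCI-AML3 or the 2 treated OCI-AML3-FLT3-ITD libraries (adjusted p = 0.056 to 0.12). LSS, which closes the ring to lanosterol, had 108, 105 and 107 CPM in treated cells and 205, 203 and 231 CPM in controls. That log2 difference of -1.0 had an SE of 0.37 with 11 libraries (edgeR adjusted p = 0.053) and 0.06 with 10 (adjusted p = 2.3e-11). MSMO1 and NSDHL, which act together to strip methyl groups from the ring, fell by 0.87 ± 0.27 and 0.89 ± 0.12 (edgeR adjusted p = 0.027 and 0.00022). MSMO1 lost the 11-library call without any 1 of the 6 OCI-AML3 libraries (adjusted p = 0.061 to 0.080), at log2 fold changes of -0.89 to -0.85. DHCR7, the reductase of the last step of one branch, had 54.1, 52.5 and 49.9 CPM in treated cells, against 114, 113 and 128 CPM in controls. It fell by 1.18 ± 0.36 (edgeR adjusted p = 0.022), the largest fall among the 19 enzymes in this line. Without control replicate 3 or any 1 treated OCI-AML3 library the adjusted p was 0.059 to 0.081, at log2 fold changes of -1.2 to -1.12.

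Not all sterol enzymes were lower. TM7SF2, a sterol reductase, had 33.3, 31.7 and 33.5 CPM in treated OCI-AML3 cells, against 18.6, 18.3 and 18.6 CPM in controls. Its treated libraries stand clear above the controls, and its log2 fold change of 0.83 had an SE of 0.41 with 11 libraries (edgeR adjusted p = 0.14) and 0.07 with 10 (adjusted p = 9.4e-10). LBR, which carries the same reductase activity besides its role as a lamin receptor, was at 219 to 224 CPM in treated cells and 228 to 248 CPM in controls, and was not called in either fit. SC5D, the sterol desaturase, rose by 0.31 ± 0.11 (edgeR adjusted p = 0.045), a call that ended without any 1 of the 6 OCI-AML3 or 2 treated OCI-AML3-FLT3-ITD libraries (adjusted p = 0.056 to 0.14). EBP, the sterol isomerase, and CYP51A1, the lanosterol demethylase, were called lower only with 10 libraries, at log2 fold changes of -0.44 and -0.43. Exons of CYP51A1 overlap other genes, mostly on the same strand, over 83.2% of their length, and over 3.85% counting only genes with an identifier in the table. HSD17B7, the keto-sterol reductase, had 9.27 to 11.6 CPM in treated cells and 9.67 to 10.4 CPM in controls, and was not called in either fit. Summed over the 19 enzymes, treated libraries had 1147, 1144 and 1137 CPM and controls 1665, 1632 and 1744 CPM.

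**Figure D1:**
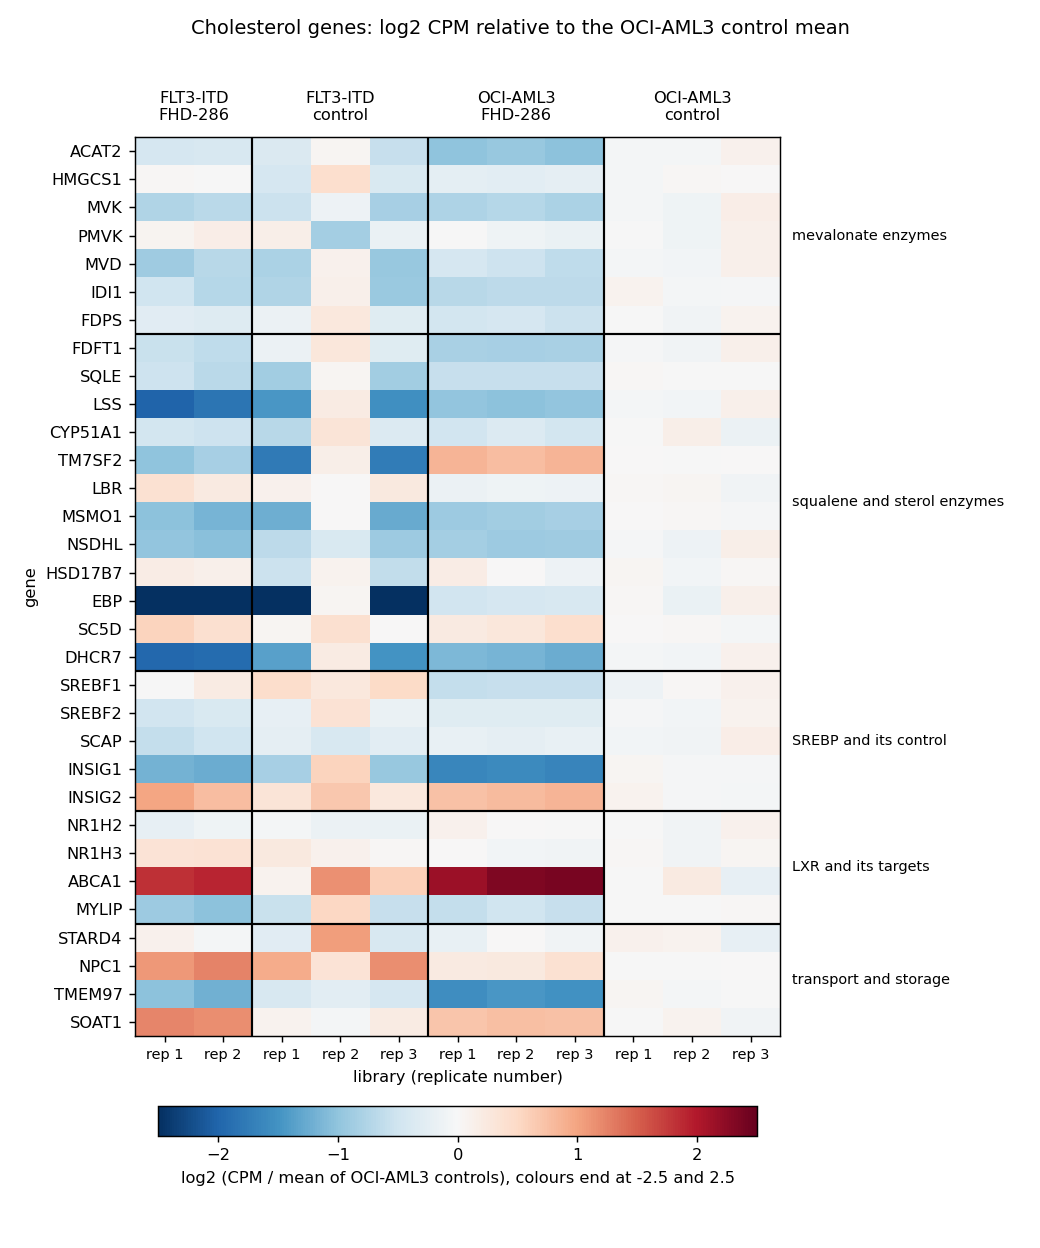
Level of 32 members in each of the 11 libraries, as log2 CPM minus the mean log2 CPM of the OCI-AML3 controls; rows are genes grouped by role, columns are libraries grouped by line and treatment, blue is lower, red is higher, and ABCG1 is left out for its low counts. INSIG1 and TMEM97 are blue and ABCA1 is red in all 3 treated OCI-AML3 libraries, and the library labelled FLT3-ITD control replicate 2 has EBP at 20.0 CPM, against 1.90 and 1.76 CPM in the other FLT3-ITD controls.

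The SREBP system in OCI-AML3 cells held the member with the largest fall. INSIG1, whose protein holds SCAP in the endoplasmic reticulum and whose gene is itself a well-known SREBP target, had 76.3, 78.6 and 74.8 CPM in treated cells, against 245, 232 and 231 CPM in controls. It fell by 1.62 ± 0.32 on the log2 scale (edgeR adjusted p = 0.0022), and no treated library reached a control. INSIG2, a second retention protein, went the other way, at 26.7, 27.8 and 28.8 CPM in treated cells and 17.03, 15.6 and 15.5 CPM in controls, and rose by 0.79 ± 0.12 (edgeR adjusted p = 0.00032). SREBF1, which encodes SREBP1, had 94.3, 96.0 and 95.5 CPM in treated cells, against 131, 145 and 154 CPM in controls, and fell by 0.59 ± 0.09 (edgeR adjusted p = 0.00034). SREBF2 encodes SREBP2, and its promoter holds the match to the sterol regulatory element printed above. It had 305, 304 and 304 CPM in treated cells, against 372, 362 and 399 CPM in controls. Its groups did not overlap, and the log2 fold change of -0.31 was called only with 10 libraries (edgeR adjusted p = 8e-05, against 0.080 with 11). SCAP, the escort protein, likewise was called only with 10, at -0.21.

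Of the LXR genes in OCI-AML3 cells, ABCA1 rose, and neither receptor gene was called in either fit. ABCA1, which exports cholesterol to apolipoprotein acceptors, had 38.01, 43.8 and 44.6 CPM in treated cells, against 8.53, 10.1 and 7.47 CPM in controls. Every treated library was above every control, and the gene rose by 2.28 ± 0.23 on the log2 scale (edgeR adjusted p = 2.5e-05). NR1H2, which encodes LXRβ, was at 96.5 to 105 CPM in treated cells and 91.4 to 104 CPM in controls. NR1H3, which encodes LXRα, was at 24.1 to 26.0 CPM in treated cells and 24.2 to 26.7 CPM in controls, so both receptors had overlapping groups. ABCG1, another exporter, had 1 to 5 counts in each treated library and 1 to 6 in each control, too few to give a fold. MYLIP, a ubiquitin ligase that removes lipoprotein receptors, had 51.5, 55.8 and 52.7 CPM in treated cells and 77.9, 77.3 and 79.6 CPM in controls, and was called lower with 10 libraries at -0.55 ± 0.06 (edgeR adjusted p = 4.4e-08, against 0.089 with 11).

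TMEM97, a sterol-responsive membrane protein that binds NPC1 and is known as the sigma-2 receptor, had 28.9, 31.0 and 29.7 CPM in treated OCI-AML3 cells, against 87.4, 82.7 and 84.9 CPM in controls. It fell by 1.51 ± 0.07 on the log2 scale (edgeR adjusted p = 2.9e-07), and 11.9% of its exon length overlaps IFT20 on the other strand. SOAT1, the esterifying enzyme, had 62.3, 64.8 and 63.5 CPM in treated cells, against 38.2, 40.8 and 36.3 CPM in controls, and rose by 0.73 ± 0.08 (edgeR adjusted p = 3.7e-05). NPC1, which moves cholesterol out of lysosomes, was at 34.0 to 37.6 CPM in treated cells and 28.9 to 29.2 CPM in controls, and was called higher only with 10 libraries, at 0.28. STARD4, a cytosolic sterol carrier, was at 24.9 to 28.6 CPM in treated cells and 24.7 to 30.5 CPM in controls, ranges that overlap.

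**Figure D2:**
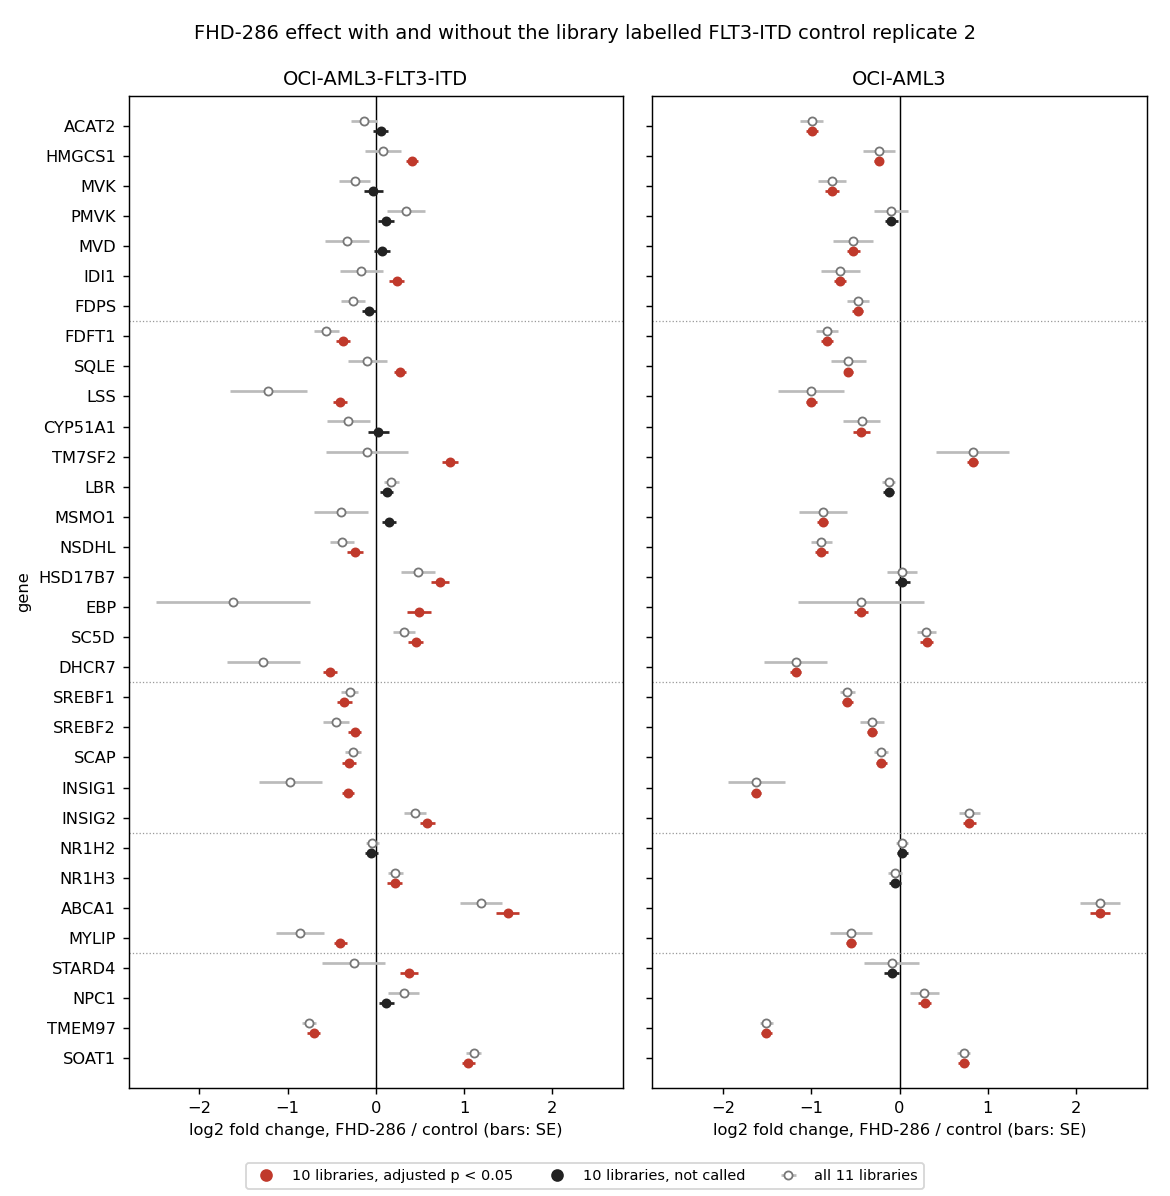
Log2 fold change of 32 members after FHD-286 in OCI-AML3-FLT3-ITD cells (left) and OCI-AML3 cells (right), with SE bars; open points are fitted with all 11 libraries and filled points with 10, red where the adjusted p is under 0.05. In OCI-AML3-FLT3-ITD cells EBP lies at -1.62 with 11 libraries and at 0.49 with 10, and in OCI-AML3 cells INSIG1 lies at -1.62 in both.

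In OCI-AML3-FLT3-ITD cells ABCA1, SOAT1 and INSIG2 again rose and TMEM97 and DHCR7 fell. The treated and control libraries overlapped for all 7 mevalonate enzymes with 11 libraries. With 10 libraries, the treated ones lay above the controls for HMGCS1 and IDI1. With 11 libraries, 3 of the 33 members rose and 6 fell, against 30.5% of all genes called (15.6% higher and 14.9% lower). With 10 libraries, 12 rose and 10 fell, against 49.0% of all genes called (24.8% higher and 24.2% lower). The treated libraries all lay above the controls for 5 members and below them for 10 with 11 libraries (26.1% and 22.9% of all genes), and for 13 and 11 with 10 libraries (36.2% and 33.9% of all genes). The median over the members was -0.25 with 11 libraries and 0.07 with 10, against -0.02 and 0.02 over all genes. Scaling by library totals gave 7 members higher and 2 lower with 11 libraries, against 4032 and 2254 of all 18908 genes. Of all calls, 64.1% were then higher, against 51.3% with TMM.

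The 7 mevalonate enzymes had edgeR adjusted p-values of 0.18 to 0.80 in OCI-AML3-FLT3-ITD cells with 11 libraries, and 2 of them, HMGCS1 and IDI1, rose with 10. HMGCS1 had 88.5 and 86.3 CPM in treated cells, against 64.9, 116 and 66.7 CPM in controls 1, 2 and 3, so the control labelled replicate 2 was above the treated libraries and the other 2 controls below them. Without that control HMGCS1 rose by 0.41 ± 0.07 on the log2 scale (edgeR adjusted p = 3.1e-05), and with it the log2 fold change was 0.08. IDI1 had 60.001 and 51.7 CPM in treated cells, against 50.2, 92.9 and 44.5 CPM in controls, and its log2 fold change was 0.24 with 10 libraries (edgeR adjusted p = 0.021) and -0.16 with 11. ACAT2, MVK, PMVK, MVD and FDPS were not called in either fit.

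Among the later enzymes in OCI-AML3-FLT3-ITD cells, FDFT1 and DHCR7 fell in both fits. FDFT1 had 200 and 188 CPM in treated cells, against 266, 355 and 237 CPM in controls, with no overlap. It fell by 0.56 ± 0.14 on the log2 scale with 11 libraries (edgeR adjusted p = 0.014) and by 0.37 ± 0.08 with 10 (adjusted p = 0.00042), and the 11-library call ended without either treated library (adjusted p = 0.067 and 0.10). DHCR7 had 30.1 and 31.3 CPM in treated cells, against 46.1, 135 and 41.8 CPM in controls. It fell by 1.28 ± 0.41 with 11 libraries (edgeR adjusted p = 0.039) and by 0.52 ± 0.08 with 10 (adjusted p = 1.7e-05). Its 11-library call ended without any 1 of the 6 OCI-AML3 or the 2 treated OCI-AML3-FLT3-ITD libraries (adjusted p = 0.056 to 0.18). LSS and NSDHL were lower only with 10 libraries, at -0.41 and -0.24.

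A second set of enzymes rose in OCI-AML3-FLT3-ITD cells with 10 libraries. TM7SF2 had 9.22 and 10.3 CPM in treated cells, against 5.44, 20.4 and 5.52 CPM in controls 1, 2 and 3. Its log2 fold change was 0.84 ± 0.09 with 10 libraries (edgeR adjusted p = 1.6e-07) and -0.10 ± 0.46 with 11. HSD17B7 had 11.5 and 10.98 CPM in treated cells, against 6.96, 10.7 and 6.62 CPM in controls, and rose by 0.73 ± 0.11 with 10 libraries (edgeR adjusted p = 8.6e-06). EBP had 2.64 and 2.5 CPM in treated cells, against 1.90, 20.0 and 1.76 CPM in controls 1, 2 and 3, so a single control sets the sign of its fold. That log2 fold change was 0.49 ± 0.13 with 10 libraries (edgeR adjusted p = 0.0048) and -1.62 ± 0.87 with 11. SQLE and SC5D also rose with 10 libraries, by 0.28 and 0.45. The 19 enzymes summed to 1213 and 1150 CPM in treated libraries and to 1206, 1846 and 1153 CPM in controls 1, 2 and 3.

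INSIG1 had 105 and 99.9 CPM in treated OCI-AML3-FLT3-ITD cells, against 132, 345 and 122 CPM in controls 1, 2 and 3. The treated libraries were below every control, with a log2 fold change of -0.97 ± 0.36 with 11 libraries (edgeR adjusted p = 0.066) and -0.31 ± 0.07 with 10 (adjusted p = 0.00077). INSIG2 had 31.8 and 27.4 CPM in treated cells and 20.1, 25.7 and 19.3 CPM in controls, and rose by 0.45 ± 0.13 with 11 libraries (edgeR adjusted p = 0.022) and by 0.59 ± 0.09 with 10 (adjusted p = 9.6e-06). It lost the 11-library call without treated replicate 1, OCI-AML3 FHD-286 replicate 3, or OCI-AML3-FLT3-ITD control 1 or 3 (adjusted p = 0.052 to 0.19). SREBF1 had 142 and 165 CPM in treated cells, against 194, 171 and 199 CPM in controls, and fell by 0.29 ± 0.10 with 11 libraries and 0.36 ± 0.08 with 10 (edgeR adjusted p = 0.043 and 0.0011). SREBF2 had 271 and 288 CPM in treated cells, against 326, 483 and 334 CPM in controls, and fell by 0.45 ± 0.15 with 11 libraries and 0.24 ± 0.07 with 10 (edgeR adjusted p = 0.041 and 0.0071). The 11-library calls of both SREBP genes were near the threshold. SREBF1 lost its call without any 1 of 6 libraries (OCI-AML3 control 2, OCI-AML3 FHD-286 1 or 2, OCI-AML3-FLT3-ITD control 1 or 3, or OCI-AML3-FLT3-ITD FHD-286 1), at adjusted p = 0.062 to 0.34. SREBF2 lost its call without any 1 of the 6 OCI-AML3 or the 2 treated OCI-AML3-FLT3-ITD libraries, at adjusted p = 0.056 to 0.21. SCAP was lower only with 10 libraries, at -0.31.

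ABCA1 had 30.7 and 32.1 CPM in treated OCI-AML3-FLT3-ITD cells, against 9.22, 19.1 and 13 CPM in controls. All controls lay below, and it rose by 1.19 ± 0.24 on the log2 scale with 11 libraries (edgeR adjusted p = 0.0037) and by 1.5 ± 0.13 with 10 (adjusted p = 8e-09). ABCG1 had 3 and 8 counts in treated libraries and 14, 5 and 12 in controls. MYLIP had 41.5 and 38.6 CPM in treated cells, against 53.1, 113 and 52.7 CPM in controls, and fell by 0.86 ± 0.27 with 11 libraries and 0.40 ± 0.07 with 10 (edgeR adjusted p = 0.036 and 7.7e-05). Its 11-library call ended without any 1 of the 6 OCI-AML3 or the 2 treated OCI-AML3-FLT3-ITD libraries (adjusted p = 0.054 to 0.18). NR1H3 was called higher only with 10 libraries, at 0.21, and NR1H2 in neither fit.

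SOAT1 had 89.2 and 86.1 CPM in treated OCI-AML3-FLT3-ITD cells, against 40.7, 36.9 and 44.1 CPM in controls, and rose by 1.11 ± 0.08 on the log2 scale (edgeR adjusted p = 7.8e-06). TMEM97 had 41.5 and 36.8 CPM in treated cells, against 64.3, 71.1 and 63.1 CPM in controls, and fell by 0.76 ± 0.08 (edgeR adjusted p = 8.9e-05). For both genes the control labelled replicate 2 lay near the other 2 controls. STARD4 had 30.7 and 27.3 CPM in treated cells, against 23.2, 58.9 and 21.5 CPM in controls 1, 2 and 3, and its log2 fold change was 0.37 with 10 libraries (edgeR adjusted p = 0.0038) and -0.25 with 11. NPC1 was at 61.9 and 68.2 CPM in treated cells and 55.0, 36.9 and 64.8 CPM in controls, ranges that overlap.

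**Figure D3:**
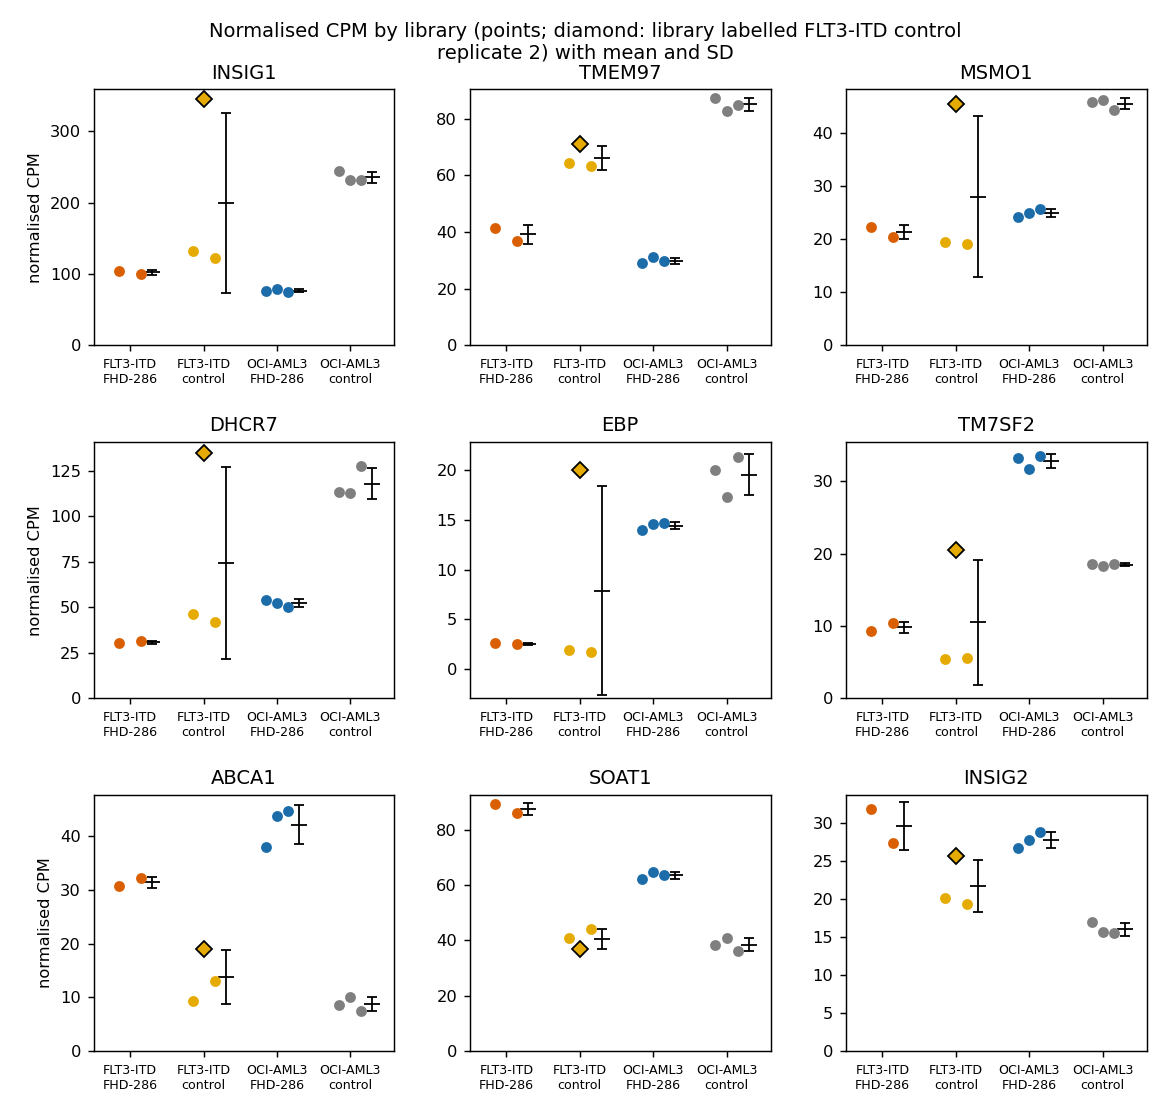
Normalised CPM of 9 members by library, with groups along the x axis; points are libraries, the diamond is the library labelled FLT3-ITD control replicate 2, and the dash and bar are mean and SD. ABCA1 and SOAT1 are higher and TMEM97 is lower in every treated library of both lines, and the diamond lies among the OCI-AML3 controls for EBP (20.0 CPM) and MSMO1 (45.6 CPM).

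The calls of both lines were set side by side, and the controls of each line belong to that line alone. With 11 libraries, INSIG2, ABCA1 and SOAT1 rose in both lines, and FDFT1, DHCR7, SREBF1 and TMEM97 fell in both, against 11.3% of all genes called higher in both (2129 genes) and 2080 of all 18908 genes called lower in both. With 10 libraries, 5 members rose in both (adding TM7SF2 and SC5D) and 10 fell in both (adding LSS, NSDHL, SREBF2, SCAP, INSIG1 and MYLIP), against 18.8% and 19.2% of all genes. HMGCS1, IDI1, SQLE and EBP were called higher in OCI-AML3-FLT3-ITD and lower in OCI-AML3 cells in the 10-library fit, as were 0.857% of all genes.

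The difference between the FHD-286 effects in the 2 lines was tested as an interaction, as the OCI-AML3-FLT3-ITD effect minus the OCI-AML3 effect. With 11 libraries, 2 of the 33 members had a positive difference and none a negative one by edgeR, against 3.36% of all genes called (1.98% positive and 1.38% negative). At an unadjusted edgeR p under 0.05 there were 8 and 1. The share of all genes at that threshold was not counted, so these 2 counts have no background to stand against. DESeq2's Wald test called 3 and 1 members, against 812 and 655 of 14403 genes with an adjusted p. Upper-quartile scaling shifted the median difference of all genes to -0.11 and made 45.2% of all calls positive, against 59.1% with TMM. The 2 members called with edgeR and TMM were ACAT2 and TMEM97. ACAT2 had 37.2 and 37.7 CPM in treated and 38.7, 51.4 and 33.5 CPM in control OCI-AML3-FLT3-ITD cells, and its difference was 0.86 ± 0.20 on the log2 scale (edgeR adjusted p = 0.042). It missed the threshold without any 1 of the 6 OCI-AML3 or the 2 treated OCI-AML3-FLT3-ITD libraries (adjusted p = 0.086 to 0.16). TMEM97 fell less in OCI-AML3-FLT3-ITD cells, by a difference of 0.75 ± 0.11 (edgeR adjusted p = 0.0063), and was called without any 1 library in turn, at differences of 0.66 to 0.84.

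With 10 libraries, 19 members had a positive difference and 1 a negative one, against 17.0% of all genes called (9.63% positive and 7.39% negative). These 19 were 6 of 7 mevalonate enzymes, 9 of 12 later enzymes, INSIG1, STARD4, TMEM97 and SOAT1. The median difference was 0.65 over the mevalonate enzymes and 0.62 over the later enzymes, against 0.02 over all genes. INSIG1 had the largest, 1.31 ± 0.09 (edgeR adjusted p = 4e-09), from log2 fold changes of -0.31 in OCI-AML3-FLT3-ITD and -1.62 in OCI-AML3 cells. MSMO1 had a difference of 1.02 ± 0.10 (edgeR adjusted p = 3.4e-07), with 22.3 and 20.4 CPM in treated and 19.5 and 19.0 CPM in the 2 remaining control OCI-AML3-FLT3-ITD libraries. In that line MSMO1 was not called, and in OCI-AML3 cells, at 24.2 to 25.7 CPM in treated and 44.3 to 46.3 CPM in control libraries, it fell. The negative difference was that of ABCA1, -0.78 ± 0.17 (edgeR adjusted p = 0.0028), and with 11 libraries the same gene had -1.09 ± 0.33 (adjusted p = 0.11). TM7SF2 and SREBF2 had differences of 0.01 ± 0.11 and 0.07 ± 0.09 in this fit, which were not called (edgeR adjusted p = 0.97 and 0.67).

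Between the untreated lines, most synthesis genes were lower in OCI-AML3-FLT3-ITD cells once the library labelled control replicate 2 was left out. With 11 libraries, 4 members were higher and 4 lower in OCI-AML3-FLT3-ITD, against 28.0% of all genes called (14.5% higher and 13.5% lower). With 10 libraries, 5 were higher and 22 lower, against 49.4% of all genes called (24.1% higher and 25.4% lower). The median over the members was -0.18 with 11 libraries and -0.40 with 10, against 0.01 and -0.02 over all genes. Scaling by library totals and by upper quartiles made 67.7% and 62.6% of all calls higher with 11 libraries, against 51.8% with TMM. These tests use the same control libraries as the treatment comparisons above. The 11-library calls were NPC1, SREBF1, INSIG2 and ABCA1 on the higher side, and NSDHL, MVK, SCAP and TMEM97 on the lower side. ABCA1 lost its call without any 1 library other than OCI-AML3-FLT3-ITD controls 1 and 2 (adjusted p = 0.056 to 0.16), MVK without any 1 library other than OCI-AML3-FLT3-ITD control 2 (adjusted p = 0.059 to 0.15), INSIG2 without OCI-AML3 control 2 or 3 (adjusted p = 0.060 and 0.069), and SCAP without OCI-AML3 control 3 (adjusted p = 0.076).

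EBP showed the widest gap of any member between untreated lines. It had 1.90, 20.0 and 1.76 CPM in untreated OCI-AML3-FLT3-ITD libraries 1, 2 and 3, against 20.0, 17.3 and 21.3 CPM in untreated OCI-AML3 libraries, so the library labelled replicate 2 lay inside the OCI-AML3 range. The log2 difference was -3.41 ± 0.11 with 10 libraries (edgeR adjusted p = 9.1e-16) and -1.31 ± 0.73 with 11 (adjusted p = 0.21). TM7SF2, LSS, DHCR7 and MSMO1 followed, at -1.75, -1.5, -1.43 and -1.24 with 10 libraries, and none of them was called with 11. INSIG1 was at -0.89 ± 0.06 with 10 libraries and -0.24 ± 0.31 with 11. NPC1 went the other way, with 55.0, 36.9 and 64.8 CPM in untreated OCI-AML3-FLT3-ITD libraries, against 28.9, 29.001 and 29.2 CPM in untreated OCI-AML3 libraries. NPC1 was higher in both fits, by 0.85 ± 0.16 with 11 libraries (edgeR adjusted p = 0.0045) and 1.05 ± 0.08 with 10 (adjusted p = 3.4e-10). SREBF1 also was higher, by 0.39 ± 0.09 with 11 (edgeR adjusted p = 0.0089) and 0.45 ± 0.07 with 10 (adjusted p = 3e-05).

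The library labelled FLT3-ITD control replicate 2 was set between the means of the other untreated libraries of each line, on the log2(CPM + 0.1) scale. Of the 27 members called between the untreated lines without it, 22 (81.5%) placed it nearer the OCI-AML3 controls, and 5247 of 9223 genes called in that comparison (56.9%) did so. The 5 exceptions were SREBF1, SCAP, INSIG2, ABCA1 and TMEM97. It lay above all other untreated libraries of both lines for 17 of the 33 members, among them INSIG1 (345 CPM), SREBF2 (483 CPM), MYLIP (113 CPM) and STARD4 (58.9 CPM), and below all of them for 2, PMVK and SCAP. Over all genes tested it lay above for 26.3% and below for 26.9%.

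**Figure D4:**
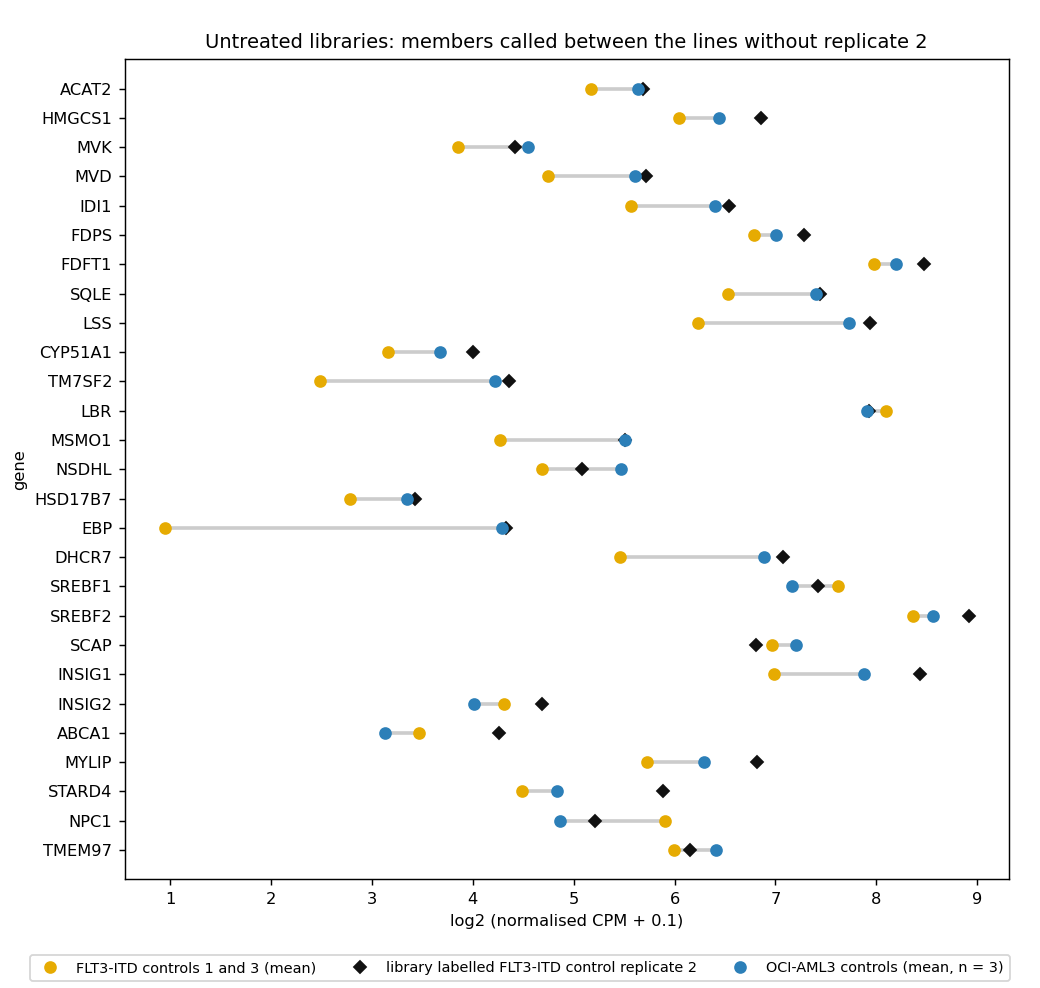
Untreated levels of the 27 members called between the lines with 10 libraries, as log2 (normalised CPM + 0.1); yellow points are the mean of FLT3-ITD controls 1 and 3, black diamonds the library labelled FLT3-ITD control replicate 2, and blue points the mean of the 3 OCI-AML3 controls. For 22 of the 27 genes the diamond lies nearer the blue point than the yellow one.

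Between the treated lines, which do not involve the library that stood apart other than through the shared spread, EBP, TM7SF2, LSS and DHCR7 were again lower with 10 libraries and INSIG1 was higher. With 11 libraries, 7 members were higher and 2 lower in treated OCI-AML3-FLT3-ITD than in treated OCI-AML3 cells, against 26.0% of all genes called (14.3% higher and 11.7% lower). With 10 libraries, 11 were higher and 10 lower, against 46.9% of all genes called (24.2% higher and 22.8% lower). EBP stayed the widest, at 2.64 and 2.5 CPM in treated OCI-AML3-FLT3-ITD and 14.0, 14.6 and 14.7 CPM in treated OCI-AML3 libraries, a log2 difference of -2.49 ± 0.11 with 10 libraries (edgeR adjusted p = 6.8e-14) and ± 0.90 with 11 (adjusted p = 0.067). TM7SF2 was lower by 1.75 ± 0.49 on the log2 scale with 11 libraries (edgeR adjusted p = 0.025), at 9.22 and 10.3 CPM in treated OCI-AML3-FLT3-ITD and 31.7 to 33.5 CPM in treated OCI-AML3 libraries. That call ended without any 1 of the 5 treated libraries (adjusted p = 0.055 to 0.16). NPC1, SREBF1, SOAT1 and NR1H3 were higher, by 0.88, 0.69, 0.46 and 0.40, in both fits, as were ACAT2, LBR and TMEM97. Some of these 11-library calls ended when 1 treated library was left out. No log2 difference of a member called between treated lines changed sign without any 1 library. LBR and TMEM97 were lost without OCI-AML3-FLT3-ITD FHD-286 replicate 1 (adjusted p = 0.079 and 0.081), NPC1 without replicate 2 (adjusted p = 0.051), and NR1H3 without either (adjusted p = 0.062). ACAT2 was lost without either of them or OCI-AML3 FHD-286 replicate 3 (adjusted p = 0.062 to 0.081), and SCAP, the second lower call, without either of them or OCI-AML3 FHD-286 replicate 1 (adjusted p = 0.056 to 0.15). INSIG1 was higher only with 10 libraries, by 0.42 (edgeR adjusted p = 1.2e-05).

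Levels were also set in order per length of exon (RPKM). In OCI-AML3 controls, INSIG1 led at 64.6 ± 2.1 RPKM, then FDFT1 at 56.4 ± 4.2, SREBF2 at 50.02 ± 2.5 and LBR at 45.8 ± 2.2 (SD, n = 3). In treated OCI-AML3 cells INSIG1 was at 21.0 ± 0.52 RPKM, and LBR at 42.0 ± 0.51, SREBF2 at 40.3 ± 0.053 and PMVK at 38.03 ± 2.1 led. Treated OCI-AML3-FLT3-ITD cells had LBR at 56.6 ± 4.8 RPKM, PMVK at 43.9 ± 1.9, FDFT1 at 37.3 ± 1.5 and SREBF2 at 37.0 ± 1.6 (SD, n = 2), and the last 2 did not differ beyond their spread. In the OCI-AML3-FLT3-ITD controls FDFT1 was at 55.0 ± 12 RPKM, INSIG1 at 54.8 ± 35, SREBF2 at 50.4 ± 12 and LBR at 50.1 ± 4.1 (SD, n = 3), so the order of these 4 lay within their spread, which includes the library labelled replicate 2. ABCA1 was at 2.77 ± 0.091 RPKM in treated and 1.21 ± 0.44 RPKM in control OCI-AML3-FLT3-ITD cells, and at 3.71 ± 0.32 RPKM in treated and 0.766 ± 0.12 RPKM in control OCI-AML3 cells. ABCG1 was last in every group.

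Other genes of the pathway were read from 5 lists, whose counts stand against the shares of all genes called after FHD-286 (41.3% in OCI-AML3 and 30.5% in OCI-AML3-FLT3-ITD cells with 11 libraries, 58.8% and 49.0% with 10). In OCI-AML3 cells with 11 libraries, 7 of 16 other isoprenoid and precursor genes fell, among them PDSS1, of the ubiquinone side chain, at -1.0, and EBPL, an EBP relative, at -0.66. Of 12 genes of SREBP processing and turnover, 3 rose and 4 fell, with ERLIN2 and AUP1, which act in the degradation of membrane proteins, at -0.44 and -0.32. Exons of PDSS1 and AUP1 overlap genes on the other strand over 10.5% and 18.3% of their length. Of 12 LXR partners and other LXR targets, 6 rose and 3 fell, with PLTP, the phospholipid transfer protein, at -1.18 and RXRA, a receptor partner of LXR, at -0.99. Of 16 tested genes of other sterol transport and ester handling, 4 rose and 5 fell, with the lipoprotein receptors LRP8 and SCARB1 at -1.14 and -0.97. Of 5 tested oxysterol and side-chain genes 1 rose, SULT2B1, which sulfates sterols. SULT2B1 had 167, 147 and 183 counts in treated and 6, 4 and 7 counts in control OCI-AML3 libraries, and rose by 4.44 ± 0.58 on the log2 scale (edgeR adjusted p = 0.00016). With 10 libraries the 5 lists gave, in that order, 1 rise and 7 falls, 4 and 5, 7 and 3, and 6 and 6, and in the last list 1 gene rose.

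In OCI-AML3-FLT3-ITD cells with 11 libraries the same 5 lists gave, in that order, 1 rise and 4 falls, 1 and 3, 4 and 4, and 3 and 4, and in the last list 1 gene rose. With 10 libraries they gave 4 rises and 5 falls, 2 and 4, 5 and 6, and 6 and 4, and again 1 rise in the last. PLTP and RXRA were again lower, at -1.05 and -1.09, as were PDSS1 at -0.78 and ERLIN2 at -0.72. DHDDS, of dolichol synthesis, and ERLIN1 were lower at -0.54 and -0.39. Of the transport genes the lipoprotein receptor VLDLR was lower at -1.09 and the sterol-binding OSBPL11 higher at 0.99. SULT2B1 had 44 and 68 counts in treated and 3, 10 and 0 counts in control OCI-AML3-FLT3-ITD libraries, and its log2 fold change was 3.54 ± 0.65 with 11 libraries (edgeR adjusted p = 0.0022) and 5.06 ± 0.55 with 10 (adjusted p = 1.7e-07). The effects of FHD-286 on LRP8 and SCARB1 differed between lines by 0.66 and 0.46, and that on EEPD1, an LXR target, by -0.88 (edgeR adjusted p = 0.037, 0.040 and 0.0087).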

How the data were processed

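The authors deposited raw counts per gene, as whole numbers and without normalisation, for 58037 Ensembl identifiers in 11 libraries. The aligner was STAR and the build hg38, as the submitters' processing notes list them. Which program, strand setting and annotation produced the counts is not given in the sources used here. Symbols matched 56948 identifiers, and exon lengths and positions came from GENCODE 29 (57433 identifiers).

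The 33 members, the other lists and the tests were chosen with earlier results of these data known. Genes passing edgeR's filterByExpr (minimum count 10, minimum total 15; 18908 genes) were scaled with TMM factors and fitted with 1 mean per group of line and treatment, leaving 7 residual degrees of freedom. Contrasts were tested with edgeR 4.0.16 (quasi-likelihood, R 4.3.3, limma 3.58.1) and adjusted by Benjamini-Hochberg over all genes, with calls at 0.05. Standard errors were approximated as |log2 fold change|/√F. The same fit was made on 10 libraries (18662 genes, 6 residual degrees of freedom). CPM uses TMM factors, and RPKM divides it by exon length. Every member may be named, and of each other list the 2 called genes with the smallest p per comparison. Alternatives were other scalings, filters, DESeq2 1.42.0, separate fits, the replicate number as a block and leaving out each library. The test was also run on simulated counts in which no library stood apart, so that run does not show how the test handles such a library. Figures used matplotlib 3.10.9 and promoters came from a RefSeq table.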

Additional observations from a re-analysis of the deposited data

Results flagged for a closer look

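The effect of FHD-286 on ACAT2 differed between the lines, by 0.86 on the log2 scale (OCI-AML3-FLT3-ITD effect minus OCI-AML3 effect; edgeR adjusted p = 0.042). It was listed because an interaction test compared the lines directly. The log2 fold change was -0.14 in OCI-AML3-FLT3-ITD cells and -1.0 in OCI-AML3 cells. Leaving out 1 library at a time gave -0.27 to 0.055 in OCI-AML3-FLT3-ITD cells. The called difference ended without any 1 of 8 libraries (edgeR adjusted p = 0.086 to 0.16).

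The effect on TMEM97 differed by 0.75 in the same test (edgeR adjusted p = 0.0063), with log2 fold changes of -0.76 in OCI-AML3-FLT3-ITD cells and -1.51 in OCI-AML3 cells. Both differences have 2 treated and 3 control OCI-AML3-FLT3-ITD libraries behind them, and 3 and 3 in OCI-AML3.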

How the results depend on the processing

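With 11 libraries and TMM the counts of members higher and lower were 4 and 12 (OCI-AML3), 3 and 6 (OCI-AML3-FLT3-ITD), 2 and 0 (difference), 4 and 4 (untreated lines) and 7 and 2 (treated lines). Fitting only the groups compared gave 6 higher and 21 lower in OCI-AML3, against 5677 and 5656 of all 16875 genes tested. It gave 1 and 1 in OCI-AML3-FLT3-ITD (730 and 888 of 18074 genes), and 2 and 1 between untreated lines (1078 and 658 of 16750). Between treated lines it gave 13 and 11 (4877 and 4704 of 17887). All members called with 10 libraries but not with 11 were called in these separate fits in OCI-AML3 (10 members) and between treated lines (12 members). Scaling by library totals gave 7 higher and 2 lower in OCI-AML3-FLT3-ITD (4032 and 2254 of all 18908 genes) and 2 lower between untreated lines (1648 genes). Library totals and upper quartiles each gave 1 positive difference, against 318 and 308 of all genes. DESeq2 and no filter each gave 1 negative difference (655 of 14403 and 401 of 33722 genes), and no filter gave 4 lower between treated lines (2160 genes). Leaving out 1 library gave 3 to 6 higher and 7 to 20 lower in OCI-AML3, 2 to 12 and 1 to 10 in OCI-AML3-FLT3-ITD, 1 to 19 and 0 to 1 for the difference, 2 to 5 and 2 to 22 between untreated lines, and 3 to 11 and 0 to 10 between treated lines. The highest counts came without the library labelled FLT3-ITD control replicate 2, and the shares of all genes without it are given above with the 10-library counts. The cause of these changes was not tested.

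Whether replicate numbers pair the libraries was not settled. The 15 same-numbered pairs had correlations of deviations of -0.029 to 0.12, 2 of them over 0.1. The 30 other pairs had -0.20 to 0.19, 1 of them over 0.1. Deviations from the mean of 2 or 3 libraries depend on each other, so this check cannot exclude pairing. With the replicate block, 3 members were higher and 13 lower in OCI-AML3 (3579 and 3929 of all 18908 genes), and 2 and 4 in OCI-AML3-FLT3-ITD (2709 and 2461). The block gave 1 and 0 for the difference (203 and 146 of all genes). It gave 4 and 3 between untreated lines (2390 and 2324) and 7 and 2 between treated lines (2566 and 1893). ACAT2 lost its called difference under the block, library totals and upper quartiles.

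Among members called in a comparison with 11 or 10 libraries, signs turned for values near 0. Between untreated lines, FDFT1 and FDPS, at -0.04, were both 0.023 with the CPM filter, 0.014 with only the groups compared, 0.060 with library totals and 0.038 with upper quartiles, HMGCS1 was 0.027 and 0.0086 under those 2 scalings, and SREBF2 was -0.0026 with the replicate block. In OCI-AML3-FLT3-ITD cells, SQLE and TM7SF2 were 0.0093 and 0.0061 with library totals.

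For the same called members, leaving out 1 library gave these ranges that cross 0. In OCI-AML3-FLT3-ITD cells they were EBP -2.10 to 0.49, HMGCS1 -0.066 to 0.41, IDI1 -0.36 to 0.24, SQLE -0.25 to 0.28, STARD4 -0.50 to 0.37 and TM7SF2 -0.41 to 0.84. For the difference they were CYP51A1 -0.086 to 0.46, DHCR7 -0.39 to 0.66, EBP -1.66 to 0.93, LSS -0.51 to 0.59 and STARD4 -0.41 to 0.46. Between untreated lines they were CYP51A1 -0.52 to 0.027, FDFT1 -0.22 to 0.086, FDPS -0.22 to 0.082, HMGCS1 -0.40 to 0.080, INSIG1 -0.89 to 0.022, MYLIP -0.56 to 0.086, SREBF2 -0.19 to 0.12 and STARD4 -0.35 to 0.53. Of the members called in neither fit, ranges crossed 0 for 3 of 7 in OCI-AML3, 5 of 11 in OCI-AML3-FLT3-ITD (ACAT2 -0.27 to 0.055 and MSMO1 -0.61 to 0.15 among them), 6 of 13 for the difference (TM7SF2 -1.24 to 0.0087, SREBF2 -0.24 to 0.071 and MYLIP -0.50 to 0.15 among them), 1 of 6 between untreated lines and 4 of 12 between treated lines. ABCG1, with at most 14 counts in a library, is limited by depth.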

Other observations

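Other pathway genes also differed between the lines. TTC39B, which acts in LXR turnover in mouse liver, had 8.25, 0.722 and 10.9 CPM in untreated OCI-AML3-FLT3-ITD libraries 1, 2 and 3, against 0.125 to 0.311 CPM in untreated OCI-AML3 libraries, and was higher by 5.11 ± 0.85 on the log2 scale with 11 libraries (edgeR adjusted p = 0.0025) and by 5.65 ± 0.23 with 10 (adjusted p = 1.6e-14). VLDLR was higher by 1.38 between untreated and by 0.82 between treated lines. NPC2, which hands cholesterol to NPC1 in lysosomes, was higher by 1.09 in treated OCI-AML3-FLT3-ITD than in treated OCI-AML3 cells (edgeR adjusted p = 0.00083). UBE2G2, an enzyme of endoplasmic reticulum protein degradation, was lower by 1.97 in the same comparison (edgeR adjusted p = 0.015), and EEPD1 was lower by 1.38.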
